A study of Mus musculus with 35 samples.

Results

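The E2F and retinoblastoma families were followed in CD45+ cells taken from the developing mouse brain. The 10 members are E2f1, E2f2, E2f3, E2f4, E2f5, E2f7, E2f8, Rb1, Rbl1 and Rbl2, chosen by gene symbol from the 55401 annotated genes of the count table, and each symbol matched 1 gene. The 7 E2F genes and the 3 retinoblastoma genes were measured in wild-type C57BL/6 mice, for which the labels name age and no other treatment, at postnatal day 6 (P6), postnatal day 15 (P15) and 8 weeks of age (8W). The comparisons used 34 mice, each with its own library, namely 4 females and 6 males at P6, 6 females and 6 males at P15, and 6 females and 6 males at 8W. A further P6 female (number 6) was left out of these groups and its values are given apart. The study removed 1 mouse as an outlier, and the sources used here do not name it. Cells were captured from the digested whole brain, without meninges, on dishes coated with an antibody against CD45, a surface protein of all white blood cells, so the samples are microglia with any other CD45+ cell or cell that stuck to the dish.

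E2F proteins are transcription factors that bind DNA with a DP partner and switch on the genes a cell needs to enter S phase and copy its DNA. E2f1, E2f2 and E2f3 are known as activators, E2f4 and E2f5 as repressors that act with pocket proteins, and E2f7 and E2f8 as atypical repressors that bind DNA without DP and damp the same targets late in S phase. The retinoblastoma protein Rb1 and its relatives Rbl1 (p107) and Rbl2 (p130) are the pocket proteins. They hold E2Fs in check until cyclin-dependent kinases phosphorylate them, and Rbl2 with E2f4 is part of the DREAM complex, which keeps cell cycle genes silent in resting cells. Microglia, the resident macrophages of the brain, divide in the first postnatal weeks and divide rarely in the adult.

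On build GRCm38 the E2F genes lie on 7 chromosomes, E2f1 at chr2:154559407-154569892 (minus strand), E2f2 at chr4:136172394-136196057 (plus), E2f3 at chr13:29906575-29986063 (minus), E2f4 at chr8:105297663-105305370 (plus), E2f5 at chr3:14578641-14606309 (plus), E2f7 at chr10:110745439-110787384 (plus) and E2f8 at chr7:48866429-48881596 (minus). The pocket protein genes are Rb1 at chr14:73183673-73325822 (minus), Rbl1 at chr2:157145893-157204534 (minus) and Rbl2 at chr8:91070057-91123844 (plus). All 10 are protein-coding, with 1782 (E2f5) to 9009 (E2f7) bases of exon in the GENCODE M21 annotation.

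Several E2F and retinoblastoma genes are themselves known targets of E2F proteins, so their promoters were searched for the E2F binding motif and the matches are shown ahead of the levels. Windows running from 250 bases before to 50 bases after the RefSeq start (build GRCm38.p6) were at hand for 7 members (9 windows), and those of E2f4, E2f5 and Rb1 were not analysed here. The search took 4 forms of the motif on both strands. The first was TTCCCGC, the second was TTGGCGC, the third was TTCGCGC and the fourth was TTGCCGC. A match lay in the windows of 5 of the 7 members, against 10.9% of the 27025 genes with a window and 9.57% of the 32851 windows. In the stretches that follow, read 5′ to 3′ on the strand of the gene, capitals mark the matched letters, and positions count from the start, with 1 as its first base.
E2f2 (chr4:136172302-136172323, plus strand, positions 29 to 50): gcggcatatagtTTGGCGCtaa
E2f3 (chr13:29986034-29986086, minus strand, positions -23 to 30): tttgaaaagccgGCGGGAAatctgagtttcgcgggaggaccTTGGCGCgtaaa
E2f7 (chr10:110745204-110745259, plus strand, positions -235 to -180): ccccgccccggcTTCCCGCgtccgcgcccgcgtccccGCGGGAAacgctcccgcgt
E2f7 (chr10:110745335-110745365, plus strand, positions -104 to -74): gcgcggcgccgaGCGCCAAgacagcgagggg
E2f8 (chr7:48881689-48881719, minus strand, positions -123 to -93): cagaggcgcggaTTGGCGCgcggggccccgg
Rbl1 (chr2:157204533-157204563, minus strand, positions -29 to 2): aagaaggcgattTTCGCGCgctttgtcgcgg

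E2f7 held 3 matches, E2f3 held 2, and E2f2, E2f8 and Rbl1 held 1 each. The windows of E2f1 and Rbl2 held none, which says only that these letters were not in these windows. The CHR motif (TTTGAA, or its form TTCGAA, on either strand), the element that DREAM and B-MYB complexes are known to use, lay in windows of E2f2, E2f3, E2f8 and Rbl2, and in 21.7% of all genes with a window. In E2f3 it forms the first 6 letters of the stretch above, and in E2f8 it lay at positions -20 to -15. The bases just after the RefSeq start were found in neither case for E2f2 in a GENCODE M21 transcript, while for the other 6 members they were. Whether a transcript starts at these places was not checked. The E2f1 window (chr2:154569377-154569676) lay inside the annotated gene, whose 5′ end is at 154569892.

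The count table held 23316107 to 38965078 assigned fragments per mouse (median 32742525), and 17612 genes, all 10 members among them, reached 0.5 CPM (counts scaled to the size of the library) in at least 5 mice. Levels are given as CPM after scaling by the trimmed mean of M-values (TMM). The 6 microglial markers, among them Tmem119, P2ry12 and Cx3cr1, summed to 6321 to 11338 CPM at P6 and to 19111 to 26245 CPM at 8W, and none was at 0 in any mouse. The 9 markers of neural progenitors and immature neurons summed to 654 to 2049 CPM at P6, 119 to 904 CPM at P15 and 90.8 to 207 CPM at 8W, and none of these was at 0 in any mouse either. The 6 markers of radial glia and cycling neural precursors summed to 231 to 451 CPM at P6 and to 37.9 to 114 CPM at 8W, with Atoh1 at 0 in every 8W mouse. The P6 female set aside had 2773 CPM of microglial and 2315 CPM of neural progenitor markers. Between P6 and 8W all 6 microglial markers rose, all 9 neural progenitor markers fell (median log2 fold change -4.86) and all 6 radial glia markers fell. Of the other lists, 4 monocyte and macrophage markers fell and 2 rose of 9, 4 neuronal markers fell and 1 rose of 6, 3 astrocyte markers rose and 1 fell of 5, 4 oligodendrocyte lineage markers fell and 3 rose of 7, 2 endothelial and pericyte markers rose and 1 fell of 5, 6 lymphocyte and neutrophil markers rose of the 6 that passed the filter (7 listed), and none of 3 erythroid markers changed.

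E2f1 fell most steeply among the activators, E2f2 fell less and E2f3 rose. "Fell", "rose" and "changed" refer to a false discovery rate (FDR) under 0.05 in edgeR's quasi-likelihood test, and "past 2-fold" to an FDR under 0.05 in its test against a 2-fold threshold, both adjusted over all 17612 genes. E2f1, which drives entry into S phase, lay at 56.2 to 82.8 CPM at P6 (median 70.3), at 11.4 to 24.4 CPM at P15 (median 14.4) and at 2.80 to 5.08 CPM at 8W (median 3.99). No mouse of one age overlapped a mouse of another. Its log2 fold change was -2.25 ± 0.12 (SE, FDR 1.39e-16) from P6 to P15 and -1.95 ± 0.12 (SE, FDR 1.3e-14) from P15 to 8W, 18.3-fold lower in all. In bulk RNA of this kind, fewer cells of a type and less RNA per cell cannot be told apart.

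E2f2 ran from 24.3 to 35.6 CPM at P6 (median 30.6), from 14.4 to 24.3 CPM at P15 (median 16.8) and from 6.66 to 20.005 CPM at 8W (median 9.18). The P6 and 8W mice did not overlap. The highest P15 mouse just reached the lowest P6 mouse, and 1 8W mouse (male 4) lay above 8 of the 12 P15 mice, with the next 8W mouse at 14.1 CPM, below all 12 P15 mice. E2f2 fell by 0.80 (SE 0.13, FDR 4.11e-06) and then by 0.78 (SE 0.13, FDR 9.38e-06) on the log2 scale, and the whole fall of 2.996-fold passed 2-fold. E2f3, the third activator, moved the other way, from 21.4 to 28.4 CPM at P6 (median 26.2) through 18.9 to 39.3 CPM at P15 (median 35.01) to 34.9 to 57.3 CPM at 8W (median 47.8). Every 8W mouse was above every P6 mouse. Its log2 fold change was 0.41 ± 0.10 (SE, FDR 0.000443) in the first interval, 0.49 ± 0.09 (SE, FDR 4.57e-05) in the second and 0.91 ± 0.10 (SE, FDR 7.71e-10) in all, which did not pass 2-fold. The neural progenitor marker score of each mouse was also fitted as a covariate. With it the rise of E2f3 from P6 to 8W was 0.50 and was no longer called (FDR 0.114). The steps from P6 to P15 (0.21, FDR 0.249) and from P15 to 8W (0.29, FDR 0.127) were not called either, while E2f1 (-3.89) and E2f2 (-1.82) still fell past 2-fold. The score ran from 4.54 to 6.58 at P6 and from 0.88 to 2.43 at 8W (mean log2 CPM), without overlap. Covariate values from P6 to 8W, here and below, thus carry a slope within groups beyond any score that both ages share. They cannot be read as age changes freed of neural progenitor RNA.

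E2f4, the most abundant repressor that binds with pocket proteins, showed no called change. It lay at 37.5 to 54.5 CPM at P6 (median 42.8), 34.7 to 56.0 CPM at P15 (median 44.2) and 39.5 to 50.8 CPM at 8W (median 44.6), and the ages overlapped throughout. Its log2 fold change from P6 to 8W was 0.03, with a 95% confidence interval of -0.11 to 0.18 (FDR 0.692). With the neural progenitor score as a covariate it became -0.81 (FDR 1.3e-05), a call in the lower direction, as were the -0.36 from P6 to P15 (FDR 0.000321) and the -0.45 from P15 to 8W (FDR 4.38e-05). E2f5, the other repressor of this kind, ran from 11.3 to 15.7 CPM at P6 (median 13.5), from 8.34 to 14.8 CPM at P15 (median 11.6) and from 7.36 to 13.4 CPM at 8W (median 11.8), with overlap between all ages. It fell by 0.27 on the log2 scale from P6 to 8W (SE 0.10, FDR 0.0118) and by 0.23 from P6 to P15 (SE 0.10, FDR 0.0368). The first of these calls was lost with the neural progenitor covariate (FDR 0.869), and the second was lost with it (FDR 0.511) and also without P6 female 1 (FDR 0.0824), P6 female 2 (FDR 0.0545) or P15 male 1 (FDR 0.0528). That second call was also lost with the replicate number as a block (FDR 0.0554), without the filter on low counts (FDR 0.0897) and with only the compared ages in the fit (FDR 0.0516).

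The atypical repressors E2f7 and E2f8 had the largest changes among the 10 members. E2f7 lay at 12.2 to 21.6 CPM at P6 (median 15.6), 0.956 to 4.69 CPM at P15 (median 2.40) and 0.0392 to 0.686 CPM at 8W (median 0.370). At 8W its counts ran from 1 to 24 fragments (median 11), and 2 of the 12 mice had fewer than 3 fragments, the lower limit that was used for detection. E2f8 fell in parallel, from 25.5 to 34.7 CPM at P6 (median 30.4) to 3.64 to 6.63 CPM at P15 (median 5.75) and 0.375 to 1.58 CPM at 8W (median 0.823). The 3 ages did not overlap for either gene. E2f7 had a log2 fold change of -2.71 ± 0.22 (SE, FDR 4.03e-12) in the first interval and -2.85 ± 0.24 (SE, FDR 4.66e-11) in the second, 46.9-fold in all. For E2f8 the same values were -2.46 ± 0.16 (SE, FDR 2.34e-14) and -2.54 ± 0.17 (SE, FDR 1.02e-13), 32.1-fold in all. With the neural progenitor covariate the change from P6 to 8W was -4.31 for E2f7 and -4.82 for E2f8, both past 2-fold.

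Among the pocket proteins, Rbl1 fell, Rbl2 rose by a small amount and Rb1 showed no called change. Rbl1, the pocket protein of cycling cells, lay at 39.7 to 70.8 CPM at P6 (median 49.2), 10.7 to 33.1 CPM at P15 (median 25.3) and 15.2 to 31.5 CPM at 8W (median 26.2). Each P6 mouse was above each older mouse, and the 8W range lay inside that of P15. Its log2 fold change was -0.97 ± 0.13 (SE, FDR 1.15e-07) from P6 to P15 and -0.01 ± 0.12 (SE, FDR 0.953) from P15 to 8W. With the neural progenitor covariate the change of Rbl1 was -1.50 in place of -0.97 from P6 to P15, and -2.04 in place of -0.98 from P6 to 8W. Both then passed 2-fold. The change from P15 to 8W was -0.54 with it and was called (FDR 0.0157).

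Rbl2, the pocket protein of resting cells, ran from 36.3 to 53.1 CPM at P6 (median 42.0), from 32.03 to 54.0 CPM at P15 (median 46.0) and from 47.4 to 62.4 CPM at 8W (median 55.0). The ages overlapped. It rose by 0.36 ± 0.08 (SE, FDR 0.000139) on the log2 scale from P6 to 8W, of which 0.25 ± 0.07 (SE, FDR 0.00614) lay between P15 and 8W. With the covariate neither rise was called, the value from P6 to 8W being -0.35 (FDR 0.0842) and that from P15 to 8W -0.11 (FDR 0.378), and the step from P6 to P15 was a called fall (-0.24, FDR 0.0402). Rb1, the retinoblastoma protein itself, varied widely between mice of an age, from 42.8 to 81.2 CPM at P6 (median 56.0), 19.7 to 86.1 CPM at P15 (median 50.4) and 30.9 to 91.3 CPM at 8W (median 66.1). Its change from P6 to 8W was 0.25 on the log2 scale, with a 95% confidence interval of -0.06 to 0.56 (FDR 0.15). Without 8W male 4, which had the lowest 8W level of Rb1, the rise passed the threshold against P6 (0.32, FDR 0.0437) and against P15 (0.36, FDR 0.025).

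**Figure D1:**
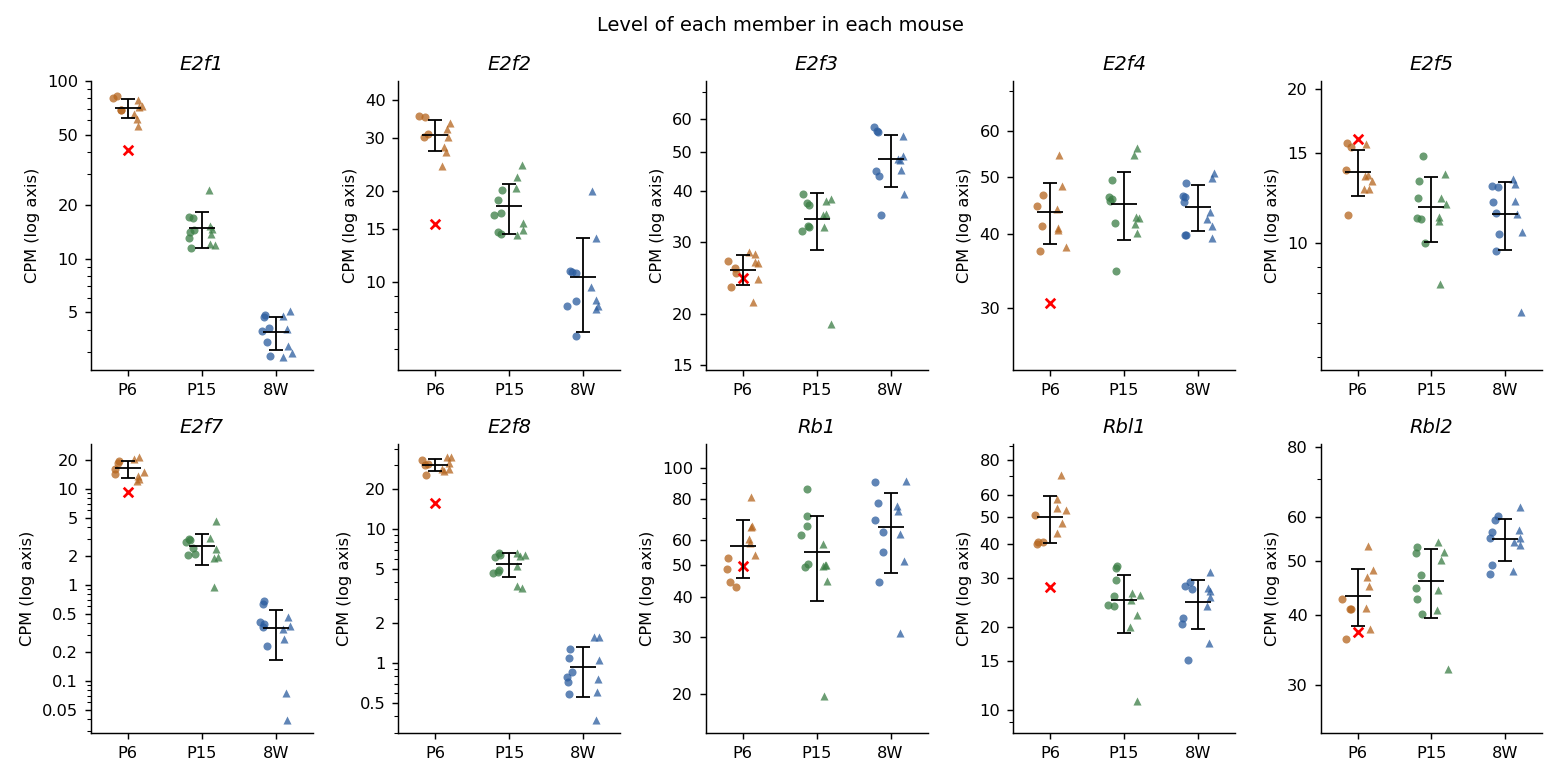
TMM-scaled CPM (log axes, which differ between panels) of the 10 members in each mouse by age, with females as circles, males as triangles, mean and SD as black bars and the P6 female set aside as a red cross. E2f1, E2f7 and E2f8 form 3 separate bands, Rbl1 drops between P6 and P15 and then stays level, E2f3 climbs, and 1 P15 male lies below the rest for Rb1, Rbl1, Rbl2 and E2f3.

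The P6 female set aside had 40.8 CPM of E2f1, 15.6 CPM of E2f2, 9.29 CPM of E2f7, 15.7 CPM of E2f8, 27.9 CPM of Rbl1 and 30.6 CPM of E2f4. Each of these was below every other P6 mouse, and for E2f1, E2f7 and E2f8 above every P15 mouse. Its 24.4 CPM of E2f3 and 49.7 CPM of Rb1 lay within the P6 range, and its 15.95 CPM of E2f5 was above every other P6 mouse.

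Counted by comparison, 6 members fell from P6 to P15 and 1 rose, where 31.4% of all genes tested fell and 30.4% rose. E2f1, E2f7 and E2f8 fell past 2-fold, against 4.85% of genes, and no member rose past 2-fold, against 4.87%. From P6 to 8W 6 members fell and 2 rose (36.6% and 37.8% of genes), with E2f1, E2f2, E2f7 and E2f8 lower past 2-fold (12.4%) and none higher (11.5%). Between P15 and 8W 4 members fell and 2 rose (23.9% and 24.0%), with E2f1, E2f7 and E2f8 lower past 2-fold (3.07%) and none higher (1.2%). The share of members that fell past 2-fold was above the share of all genes in each comparison. The share that rose at FDR under 0.05 was near that of all genes between P15 and 8W and below it in the others. Any pair of these comparisons shares the mice of 1 age. With the neural progenitor covariate, 6 members fell and none rose from P6 to 8W, where 46.1% of all genes were called in either direction.

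Mice of both ages did not overlap, with the older lower, for 4 members between P6 and P15 (7.72% of genes), 5 members between P6 and 8W (14.8%) and 3 members between P15 and 8W (1.72%). With the older mice higher, this held for E2f3 between P6 and 8W (14.8% of genes) and for no member between P6 and P15 (5.25%) or between P15 and 8W (1.65%).

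**Figure D2:**
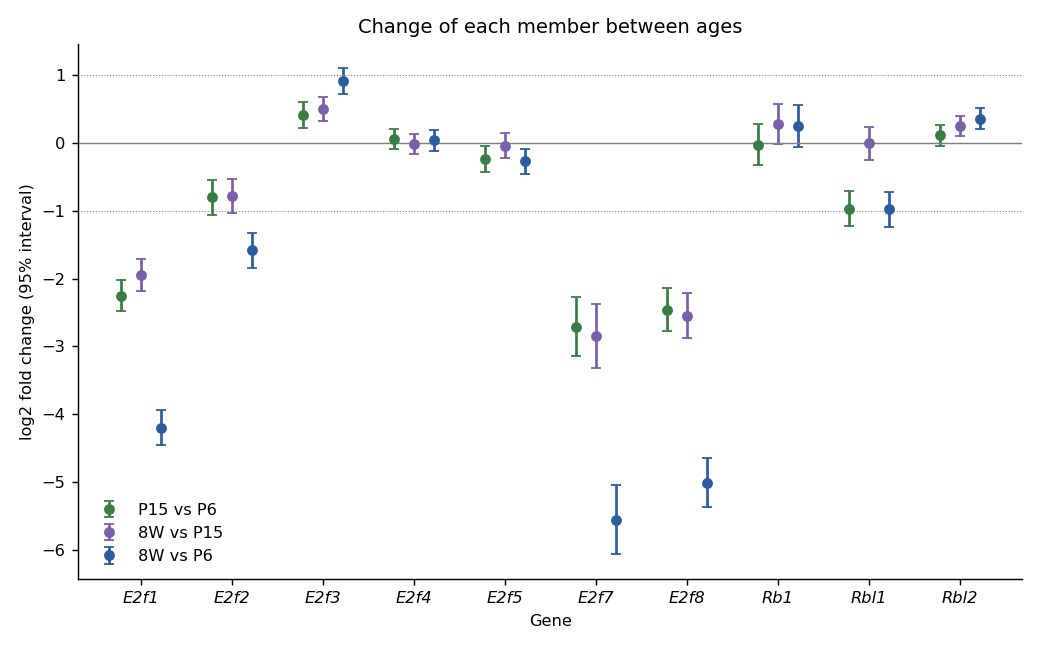
log2 fold change of each member between ages, with 95% confidence intervals from the standard error and dotted lines at 2-fold. E2f1, E2f7 and E2f8 dropped by similar amounts in the first and the second interval, which are of unequal length. The change of Rbl1 lay in the first, except that with the neural progenitor covariate, not drawn here, Rbl1 also fell in the second (-0.54).

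The shape of each course was read by setting P15 against the midpoint of P6 and 8W on the log2 scale. A value below 0 means that P15 lay lower than equal log2 steps would put it. The intervals are of unequal length, so equal steps are not an equal rate over time. Rbl1 was the member called, at -0.48 ± 0.11 (SE, FDR 0.000964), and 15.8% of all genes were called in this direction. E2f1 lay at -0.15 (FDR 0.255), E2f7 at 0.07 (FDR 0.795) and E2f8 at 0.04 (FDR 0.833), so no departure from equal log2 steps was called for these. Without P15 male 1, which had the highest P15 level of E2f1, E2f1 was called too (-0.23, FDR 0.0494).

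No member differed between males and females at P6, P15 or 8W by edgeR at FDR under 0.05, and DESeq2 and limma-voom also called 0 at each age. The background at this FDR was 0.0511% of all genes in the P6 test, 0.0681% in the P15 test and 0.114% in the adult test. At an unadjusted p under 0.05 edgeR counted 0 of 10 members at P6 (7.1% of all genes), 2 at P15 (18.2% of all genes) and 0 at 8W (2.94% of all genes), so that the share at P15 was near the background. The 2 were Rb1, which was 0.50 lower in males on the log2 scale (FDR 0.255), and Rbl1, which was 0.37 lower (FDR 0.262). Without P15 male 1, the lowest mouse in both genes at that age, the differences were -0.32 (FDR 0.453) and -0.21 (FDR 0.506), and neither kept an unadjusted p under 0.05. Leaving out any other P15 mouse gave -0.40 to -0.55 for Rb1 and -0.29 to -0.43 for Rbl1, and 1 or both lost the unadjusted p under 0.05 without female 2, 4, 5 or 6 or male 2 or 4. The change from P6 to 8W differed between the sexes for 0 members and for 0.0% of genes by edgeR, and at an unadjusted p under 0.05 for 0 members and 5.1% of genes.

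Levels of different genes were compared as CPM per kb of exon, since longer genes yield more fragments. At P6 E2f1 stood first at 22.4 ± 2.64 CPM per kb (SD, n = 10), ahead of E2f4 at 17.8 ± 2.11 (SD, n = 10), though their ranges overlapped and E2f1 was above E2f4 in 9 of 10 mice. A gap without overlap separated E2f4 from Rb1 at 9.54 ± 1.93 CPM per kb (SD, n = 10). Rb1, Rbl1, E2f5, E2f2, Rbl2, E2f8 and E2f3 followed with ranges that overlapped from each to the next, down to 4.73 CPM per kb for E2f3, and E2f7 stood last and apart at 1.83 CPM per kb. The order between Rbl1 and E2f3 depended on the length used. Divided by the longest transcript in place of all exons it was Rbl2, E2f8, E2f5 and E2f2, and E2f1 was above E2f4 in 7 of 10 mice.

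At P15 E2f4 led at 18.4 ± 2.45 CPM per kb (SD, n = 12) and at 8W at 18.2 ± 1.63 CPM per kb (SD, n = 12). E2f1 had moved to the sixth place at P15 with 4.75 ± 1.10 CPM per kb (SD, n = 12) and to the eighth at 8W with 1.23 ± 0.26 CPM per kb (SD, n = 12). E2f3 moved from the ninth place at P6 to the fourth at P15, at 6.28 CPM per kb, and to the third at 8W, at 8.85 CPM per kb, where it overlapped Rb1 above it (10.9 CPM per kb) and Rbl2 below it (7.24 CPM per kb). With the longest transcript as the length, E2f3 stood in the fourth place at 8W with 9.42 CPM per kb, behind Rbl2 with 11.1 CPM per kb in all 12 mice, and Rbl2 held the third place at P15 as well. E2f8 and E2f7 held the last places at P15 and 8W, at 0.172 and 0.0397 CPM per kb in the adult.

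The balance within each family was taken as the share of each class in the family's summed CPM per kb in a mouse. The 18 comparisons between ages were tested by two-sided permutation of the mice (100000 resamples, smallest possible p 1e-05) with Benjamini-Hochberg adjustment. Shares of E2F classes are of the sum over the 7 E2F members, which leaves out E2f6. The activators E2f1 to E2f3 made up 50.2% ± 2.86 (SD, n = 10) of that sum at P6, 35.9% ± 2.59 (SD, n = 12) at P15 and 33.0% ± 2.91 (SD, n = 12) at 8W. The share of the repressors E2f4 and E2f5 went from 38.6% ± 2.96 (SD, n = 10) through 60.9% ± 2.58 (SD, n = 12) to 66.5% ± 2.83 (SD, n = 12), and the P6 mice overlapped neither older age. In CPM, E2f4 itself had no called change and E2f5 fell, while E2f1, E2f2, E2f7 and E2f8 in the same sum fell past 2-fold from P6 to 8W. The share of the atypical repressors E2f7 and E2f8 went from 11.1% ± 0.68 (SD, n = 10) to 3.16% ± 0.72 (SD, n = 12) and 0.576% ± 0.21 (SD, n = 12), with 3 ages that did not overlap. All 9 E2F comparisons passed the permutation test, with adjusted p from 2e-05 to 0.0165. The largest of these belonged to the activators between P15 and 8W. On CPM not divided by length the activators held 54.8% at P6, 50.8% at P15 and 52.0% at 8W, ahead of E2f4 and E2f5 at each age (43.1% at P15 and 46.9% at 8W). The step of the activators was then -4.01 percentage points from P6 to P15 and -2.84 from P6 to 8W (adjusted p = 0.00148 and 0.0435 by permutation), and 1.17 from P15 to 8W (adjusted p = 0.358 by permutation). That of E2f7 and E2f8 from P6 to 8W was -19.1 in place of -10.6.

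In the retinoblastoma family the share of Rbl1 went from 35.1% ± 2.91 (SD, n = 10) at P6 to 21.4% ± 2.48 (SD, n = 12) at P15 and 18.4% ± 1.88 (SD, n = 12) at 8W. The P6 mice did not overlap the others, and the step from P15 to 8W also passed (adjusted p = 0.00477 by permutation). The share of Rbl2 went from 24.5% ± 2.52 (SD, n = 10) at P6 to 32.4% ± 5.32 (SD, n = 12) at P15 (adjusted p = 0.000135 by permutation), and that of Rb1 from 40.3% ± 4.47 (SD, n = 10) to 46.3% ± 5.76 (SD, n = 12) (adjusted p = 0.017 by permutation). The first step of Rb1 missed the threshold on CPM not divided by length (adjusted p = 0.0519 by permutation). In CPM, neither Rb1 (log2 fold change -0.03, FDR 0.9) nor Rbl2 (0.11, FDR 0.228) changed from P6 to P15. Rbl1 in the same sum fell. From P15 to 8W the share of Rb1 moved by 1.92 percentage points (adjusted p = 0.442 by permutation) and that of Rbl2 by 1.03 (adjusted p = 0.634 by permutation). Without P15 male 1 these steps were 0.925 and 2.23 percentage points, and without 8W male 4 they were 3.06 and 0.0527, none of which passed.

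**Figure D3:**
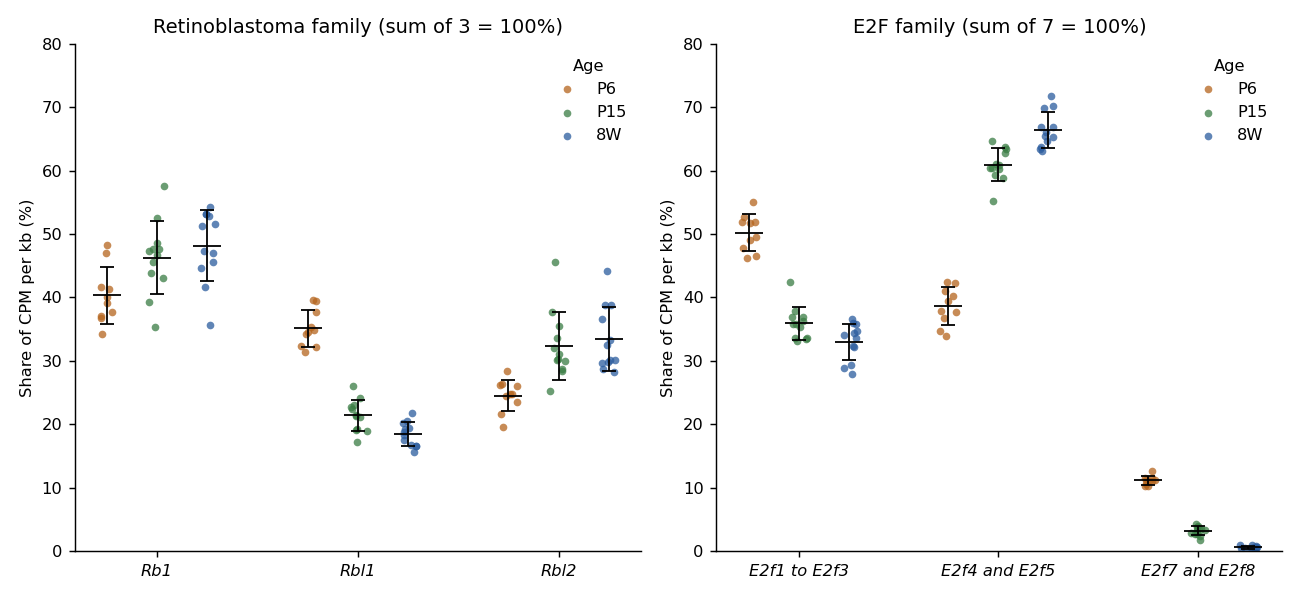
Share of each class in the summed CPM per kb of its family, as percent, with 1 point per mouse and mean and SD as black bars. In the E2F family the shares of E2f1 to E2f3 and of E2f4 and E2f5 exchange rank between P6 and P15, which they do not on CPM undivided by length. In the retinoblastoma family the share of Rbl1 falls while those of both relatives rise. Shares of a family add up to the whole, and in CPM neither Rb1 nor Rbl2 changed from P6 to P15.

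The genes that work with the families or are known to be under their control were read from 9 lists, described by counts and medians. From P6 to 8W the median log2 fold change of all genes tested was 0.04. Of these genes 36.6% fell and 37.8% rose, with 12.4% lower and 11.5% higher past 2-fold. All 3 genes of the partner list fell, the DP partners Tfdp1 (-1.82) and Tfdp2 (-1.28) and the pocket-independent repressor E2f6 (-0.84). Of the 8 genes of the DREAM and B-MYB complexes 5 fell and 2 rose (median -0.77). The mitotic transcription factors Foxm1 (-4.47), Mybl2 (-4.12) and Mybl1 (-2.43) fell past 2-fold and the histone chaperone Rbbp4 fell by 0.94. Lin52 (0.51) and Lin37 (0.44), core subunits of the complex named after their values were seen, rose.

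Of the 8 cyclins and kinases that phosphorylate pocket proteins, 6 fell and 1 rose (median -1.42). Cyclin D2 (Ccnd2, -3.96), the E cyclins Ccne1 (-3.85) and Ccne2 (-3.62) and Cdk4 (-2.03) fell past 2-fold. The riser was cyclin D3 (Ccnd3, 0.23, FDR 0.0184), named after its value was seen. Of the 7 inhibitors of these kinases 4 fell, 0 rose and 3 were not called (median -0.90), with Cdkn2c (-3.35), Cdkn2a (-2.95) and Cdkn2d (-1.23) past 2-fold and Cdkn1a at -0.90. The inhibitors not called, named after their values were seen, were Cdkn1b (-0.22), Cdkn1c (0.01) and Cdkn2b (0.40).

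Among 11 corepressors of the pocket proteins 6 fell and 2 rose (median -0.71). The histone methyltransferase Suv39h1 (-1.49) and the deacetylase Hdac2 (-1.28) fell past 2-fold and Rbbp7 fell by 1.08, while Arid4a, an RB-binding protein, rose past 2-fold (1.38). The demethylase Kdm5a, named after its value was seen, rose by 0.41. The 4 genes of E2F turnover and protein destruction all fell (median -1.64), with Ccnf, known to mark E2Fs for destruction, at -3.64, Skp2 at -1.69, Fbxo5 at -1.59 and Fzr1 at -0.54.

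All 27 S phase targets of E2F fell from P6 to 8W, 26 of them past 2-fold, with a median of -3.40. Large falls were those of cyclin A2 (Ccna2, -5.57), the ribonucleotide reductase subunit Rrm2 (-5.50) and the maintenance methylation factor Uhrf1 (-5.37). From P6 to P15 all 27 fell (median -2.20), and from P15 to 8W 24 fell (median -1.04). Pcna (-0.05) and Pola1 (-0.25), named after their values were seen, were among those not called in the later interval. All 11 G2 and M targets of DREAM fell past 2-fold, with a median of -5.08 and the mitotic genes Ccnb1 (-6.27), Birc5 (-5.73), Bub1 (-5.72) and Ccnb2 (-5.72) at the front. Of 6 apoptosis targets of E2F 4 fell and 1 rose (median -0.52). Trp73, which is also active in neural cells, fell by 4.37, and Bbc3 rose by 0.69. The neural progenitor markers fell over the same interval, and their part in these list counts was not tested.

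**Figure D4:**
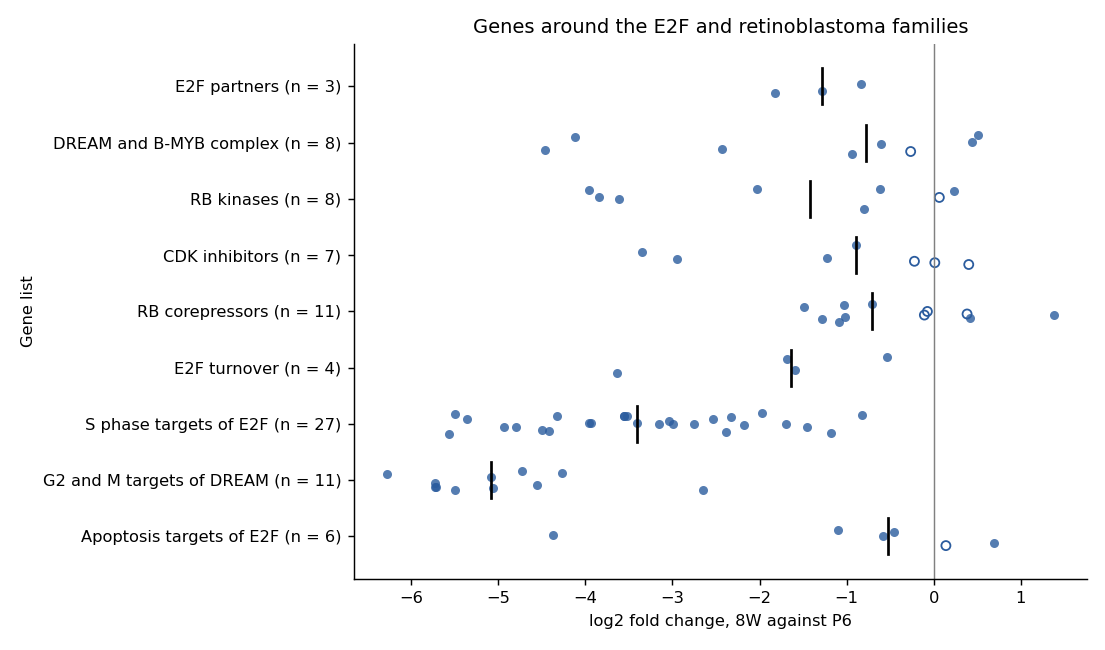
log2 fold change from P6 to 8W of the genes in 9 lists, with filled points for FDR under 0.05, open points for genes not called and black bars at the median of each list. The S phase and the G2 and M targets lie wholly below 0, and the kinase, inhibitor and corepressor lists spread to both sides.

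Within an age and sex, members were set against the marker content of the library. Each value was taken as the deviation from the mean of its group of age and sex, over 34 mice, and 20 relations (10 members, 2 marker lists) were tested by 100000 permutations within groups. E2f4 had the strongest relation with the neural progenitor score, with Pearson's r -0.83 (adjusted p = 0.0001 by permutation) and Spearman's rho -0.84 (adjusted p = 6.67e-05 by permutation), and r was -0.84 without the 2 mice farthest from the median score. With the microglial score the r of E2f4 was 0.79 (adjusted p = 0.0001 by permutation, rho 0.78, r 0.79 without the 2 farthest mice). Mice with more neural progenitor RNA thus had less E2f4 and mice with more microglial RNA had more of it.

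Rbl2 and Rbl1 followed the same pattern. Rbl2 had r -0.69 with the neural progenitor score (adjusted p = 0.00136 by permutation, rho -0.63, r -0.64 without the 2 farthest mice) and 0.81 with the microglial score (adjusted p = 0.0001 by permutation, rho 0.80, r 0.69 without them). Rbl1 had r -0.58 with the neural progenitor score (adjusted p = 0.00513 by permutation, rho -0.50, r -0.55 without the 2 farthest mice) and 0.75 with the microglial score (adjusted p = 0.0001 by permutation, rho 0.72, r 0.61 without them). E2f7 was the member with a positive relation to the neural progenitor score that passed, at r 0.44 (adjusted p = 0.0251 by permutation, rho 0.47), and r was 0.33 without the 2 farthest mice. E2f1 (r 0.14), E2f2 (r -0.12) and E2f8 (r 0.10) had none that passed with this score. In all 7 of the 20 relations passed by r and 7 by rho. How many other genes pass against the same scores was not counted, so these numbers have no background beside them.

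**Figure D5:**
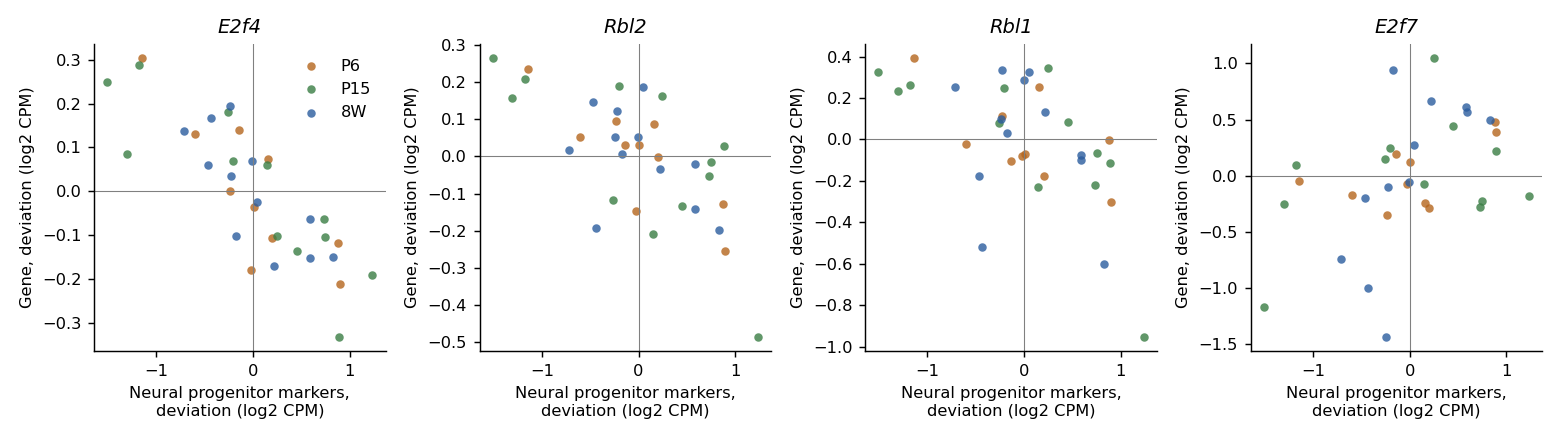
Deviation of E2f4, Rbl2, Rbl1 and E2f7 (log2 CPM) from the mean of their age and sex group against the deviation of the mean log2 CPM of 9 neural progenitor markers, with 1 point per mouse coloured by age. The points slope down for E2f4 (r -0.83), Rbl2 (r -0.69) and Rbl1 (r -0.58), and up for E2f7 (r 0.44).

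A second feature of the libraries moved with some members. For each mouse, the rank correlation across 17600 genes between the deviation from the group mean and exon length ran from -0.30 in 8W male 4 to 0.25 in 8W male 5. Libraries thus differed in the levels of long genes relative to short ones, and the source of this was not tested. Rb1 followed this tilt, with r 0.77 (adjusted p = 0.0001 by permutation, rho 0.86, r 0.73 without the 2 farthest mice), and E2f4 and E2f1 ran against it (r -0.59 and -0.56, adjusted p = 0.00335 and 0.00873 by permutation). In total 6 of 10 members passed by r and 4 by rho. The share of all genes that pass was not taken, so this count is not a trait of the members. The part of the tilt in the spread of Rb1 was not tested further.

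Members also moved with each other inside the groups, in 16 of 45 pairs by r and 12 by rho. Pairs of other genes were not counted, so no background stands beside these numbers. Rbl1 and Rbl2 were the closest pair (r 0.83, adjusted p = 0.00045 by permutation, rho 0.77, r 0.74 without the 2 farthest mice). E2f3 went with Rb1 (r 0.79, adjusted p = 0.00045 by permutation, rho 0.65, r 0.64 without the 2 farthest mice). E2f1 and E2f2 went together (r 0.62, adjusted p = 0.00849 by permutation, rho 0.55), and E2f1 ran against Rb1 (r -0.66, adjusted p = 0.00945 by permutation, rho -0.57). These relations share the libraries with the marker scores and the length tilt above.

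Over the same 34 deviations, the genes outside the families most like each member were Banf1 and Elob for E2f1 (r 0.87 and 0.84), Cad and Gtf3c1 for E2f2 (both 0.80), Phf21a and Riok2 for E2f3 (0.90 and 0.89), Zfp710 and Taz for E2f4 (0.92 and 0.90) and Slc5a3 and Gm42547 for E2f5 (0.78 and 0.77). They were Cip2a and Gm42572 for E2f7 (0.75 and 0.73), Depdc1a and Anln for E2f8 (0.71 and 0.70), Hook3 and Arfgef1 for Rb1 (0.98 and 0.97), Heca and Man1a for Rbl1 (0.94 and 0.94) and Mcur1 and Ctbs for Rbl2 (0.91 in both cases). Depdc1a and Anln, known for their part in cell division, stood nearest to E2f8. These coefficients are a description and carry no test, and the deviations of E2f7 at 8W rest on few fragments.

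Set beside their promoters, the 5 members with an E2F motif in the window comprised 4 that fell from P6 to 8W (E2f2, E2f7, E2f8 and Rbl1) and E2f3, which rose. E2f1 fell 18.3-fold without a motif in its window, which lies inside the annotated gene, and Rbl2 rose without one. With an 8-letter motif, which asks for 1 more T at the start, 4 members kept a match (E2f2, E2f3, E2f7 and Rbl1), against 2.6% of genes.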

How the data were processed

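The authors sequenced directional RNA libraries as paired ends, aligned reads with STAR to mm10 (GRCm38) and deposited raw counts of fragments per gene from featureCounts (Subread), counted by strand. The annotation release is not given in the sources used here. Here, genes under 0.5 CPM in all but 4 or fewer of the 34 mice were left out, counts were scaled by TMM, and edgeR 4.0.16 (R 4.3.3) fitted the 6 groups of age and sex with robust quasi-likelihood tests, with Benjamini-Hochberg adjustment over 17612 genes. Intervals use the normal approximation. The script was checked on simulated counts. Exon lengths and overlaps came from GENCODE M21 and promoters from RefSeq tables. E2f5, E2f7, E2f8, Rb1 and Rbl2 share exon bases with genes on the other strand. Marker scores are mean log2 CPM with a prior count of 2. No 2 mice of a group agreed within sampling noise. The labels name no batch and no column was left unused (0 without a sample). The members and the lists of genes and markers were chosen with earlier results of these data known. From each list up to 4 genes with the largest change from P6 to 8W were named, and for each member the 2 genes most alike. Some genes of these lists are counted but not reported by name here. The alternatives covered scaling, filters, tools, samples, covariates and left-out mice. Chosen after seeing the data were leaving out P15 male 1 or 8W male 4, and leaving out single P15 mice in the test of sex.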

Additional observations from a re-analysis of the deposited data

Results flagged for a closer look

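Levels of 10 members in 6 groups of age and sex gave 60 sets, of which 5 had a mouse whose gap to the nearest other exceeded Dixon's 95% critical value, and chance flags about 1 in 20 such sets. In P15 males, male 1 had the highest E2f1, at 24.4 CPM with the other 5 males at 12.01 to 15.3 CPM. The same mouse had the lowest E2f3, at 18.9 CPM with the others at 32.7 to 38.4 CPM, and the lowest Rb1, at 19.7 CPM with the others at 44.7 to 58.3 CPM. In P6 males, male 3 had the highest E2f5, at 15.6 CPM with the others at 12.8 to 13.6 CPM. In P6 females, female 5 had the highest Rbl1, at 50.9 CPM with the others at 39.7 to 40.6 CPM. Of all 34 mice, P15 male 1 had the highest neural progenitor score relative to its group (1.24 above the mean on the log2 scale) and the lowest microglial score (-0.74), and P6 male 3 had a neural progenitor score 0.90 above its group mean. The part of these scores in the 5 values was not tested.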

How the results depend on the processing

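Of 1049 values recomputed under other settings, 1002 kept their direction and their side of the threshold (counts: stayed within 1.5 times), 12 lost a call, 6 gained one and 29 changed sign. Most of the 29 lay near 0 in the main analysis or came with the neural progenitor covariate. That covariate gave -0.36 for E2f4 (called), 0.0243 for Rb1 and -0.24 for Rbl2 (called) from P6 to P15, -0.81 for E2f4 (called) and -0.35 for Rbl2 from P6 to 8W, and 0.0677 for E2f5 and -0.11 for Rbl2 from P15 to 8W (log2 fold changes), and the cause was not tested. Scaling by library size alone moved the median of all genes to -0.14 (P15 against P6) and -0.10 (8W against P6). With it E2f4 stood at -0.0783 and Rbl2 at -0.0184 from P6 to P15, E2f4 at -0.10 from P6 to 8W, and off the midpoint E2f4 at -0.0261 and E2f8 at -0.0121. With at least 10 counts in every mouse E2f4 stood at -0.0025 from P6 to 8W, and E2f7 was not tested. Rbl1 from P15 to 8W was 0.00073 with all 35 mice, 0.0021 with the compared groups only and 0.0022 with the replicate block. With all 35 mice E2f2 lay 0.0256 off the midpoint, and r was 0.0288 for Rb1 with neural progenitor markers and 0.0408 for E2f1 and 0.24 for E2f2 with microglial markers.

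With 1 mouse left out (each P6 female, or P15 male 1 or 8W male 4, the last 2 chosen after seeing the data), E2f4 ran from -0.00021 to 0.0747 (P6 to P15) and from -0.0366 to 0.0564 (P6 to 8W), Rb1 from -0.0624 to 0.0463 (P6 to P15), E2f5 from -0.10 to 0.0147 and Rbl1 from -0.10 to 0.0454 (P15 to 8W), and off the midpoint E2f2 from -0.0454 to 0.0411 and E2f3 from -0.0661 to 0.0280. The number of members off the midpoint ran from 1 to 2. On CPM not divided by length, the share of E2f1 to E2f3 from P15 to 8W moved by 1.17 percentage points in place of -2.94, and that of Rb1 from P6 to P15 by 4.80 (adjusted p = 0.0519 by permutation).

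Same-numbered mice of different groups had deviations with r from -0.35 to 0.60 (median 0.02 over 80 pairs). For differently numbered mice r ran from -0.53 to 0.52 (median -0.007 over 400 pairs). No pairing by number was seen, but expression alone cannot exclude that the numbers mark something shared. The replicate block gave 6, 8 and 6 changed members (P15 against P6, 8W against P6, 8W against P15), 3, 4 and 3 past 2-fold, 0 between the sexes and 1 off the midpoint, where it called 61.2%, 74.0% and 48.3% of all genes in the 3 age comparisons. The member lost between P6 and P15 was E2f5 (FDR 0.0554). Depth limits E2f7 at 8W, where 3 fragments amount to 0.0850 to 0.113 CPM of the library total, before TMM scaling.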
